A study of Mus musculus with 17 samples.

Results

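Glutamate and GABA receptor subunits were represented by 21 genes with 28 probe sets, of 8252 genes with a symbol of their own and 12488 probe sets on the array. A probe set was a member when the platform annotation gave it a single gene symbol that began with Gria, Grik, Grin or Grm and a digit, or with Gabra, Gabrb, Gabrg, Gabrd or Gabbr. The rule itself used no measured value, but it was chosen with earlier results of these data known. By class there were 8 AMPA, 5 kainate, 4 NMDA and 1 metabotropic glutamate receptor probe sets, 4 for GABA-A alpha, 2 for beta and 3 for gamma and delta subunits, and 1 for a GABA-B subunit.

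Glutamate is the main excitatory transmitter of the brain and GABA the main inhibitory one. AMPA, kainate and NMDA receptors are cation channels that glutamate opens, GABA-A receptors are chloride channels assembled mostly from alpha, beta and gamma or delta subunits, and the metabotropic glutamate and GABA-B receptors act through G proteins. In ischemia, glutamate accumulates outside cells and calcium entry through NMDA receptors and through AMPA receptors that lack the Gria2 subunit is known to injure neurons, and loss of Gria2 mRNA is known from selectively vulnerable neurons.

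The RNA came from mouse brain, grey and white matter supplied by the middle cerebral artery, and each array was hybridised with 1 RNA sample. Of the 17 arrays, 12 held pools of 6 brains, with 3 pools in each of 4 groups. Control pools came from mice given saline, and drug control pools from mice given AEOL 10150, a catalytic antioxidant, with tissue taken 6 h after the injection in both. Ischemic pools had 1 h of ischemia and 6 h of reperfusion, and treated ischemic pools had the same with AEOL 10150 injected intravenously between the ischemia and the reperfusion. The other 5 arrays were single brains (numbers 11, 12, 13, 14 and 16) treated like the treated ischemic pools. The labels give no dose, no strain, sex or age, and no vehicle for the untreated ischemic mice. They do not say whether the pools of a group came from separate experiments, so p-values measure only the spread between these pools.

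Titles and descriptions disagree on the treatment of 2 arrays. Against their titles, the description of drug control pool 1 names saline and that of treated ischemic pool 1 names no drug. In replicate numbers, the description calls treated ischemic pool 2 a first replicate, and the title of brain 11 carries the number 4. Titles were used for grouping, and counts with the descriptions in their place are given beside the results. Of the arrays, 10 had been deposited on a common scale and 7 on another, which were all single brains and treated ischemic pools 2 and 3, so that the single brains and their scale cannot be told apart. All levels given here are log2 of the intensity after scaling every array to the same trimmed mean, with a floor of 6.77 under which values were not resolved. On each array 24.3% to 26.5% of values were at it. The actin control probe sets give a 3'/5' ratio that reflects how intact the RNA was, with medians of 1.33 (control), 1.97 (drug control), 1.53 (ischemic) and 1.34 (treated ischemic pools). Of 19 probe sets for general neuronal markers none was at the floor on all arrays. Their summed linear intensity ran from 342399 to 409220 in the pools and from 362568 to 397839 in the single brains.

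Of the 28 member probe sets, 26 were above the floor on at least 3 of the 12 pooled arrays and were tested. The others were a further Gria2 probe set (162076_r_at), which lay at the floor on every array, and a further Grik5 probe set (162074_r_at), which was above the floor only in ischemic pool 3 (8.78) and treated ischemic pool 2 (7.11).

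Ischemia was compared with its control in each drug arm, and the arms share no arrays. No member passed an adjusted p of 0.05 in either arm or in their mean with limma, where 0.214% of all probe sets passed without the drug, 0.0877% with it and 0.448% in the mean of both arms. At an unadjusted p under 0.05 there was 1 member without the drug (4.12% of all probe sets), 1 with it (3.44%) and 3 in the mean of both arms (4.92%), all of them lower after ischemia. Most members had lower means after ischemia all the same. Without the drug this held for 17 of 26 members (45.7% of all probe sets) with a median log2 difference of -0.22, against 0.03 over all probe sets. With the drug it held for 20 of 26 (53.5% of all) with a median of -0.34, against -0.02. In the mean of both arms 21 of 26 were lower (47.5% of all), with a median of -0.20 against 0.01.

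In both arms separately, 15 of the 26 were lower (26% of all probe sets), 4 were higher and 7 differed in sign. The glutamate channels made up most of them: 6 of 7 AMPA, 2 of 4 kainate and 3 of 4 NMDA probe sets were lower in both arms, beside 4 of 9 for the GABA-A subunits. In the mean of both arms the class median was -0.37 for AMPA, -0.21 for kainate, -0.39 for NMDA, -0.10 for GABA-A alpha, -0.10 for beta and -0.14 for gamma and delta subunits. When any 1 pool was left out, the median ran from -0.44 to -0.25 for AMPA, from -0.42 to -0.03 for kainate, from -0.48 to -0.14 for NMDA and from -0.22 to 0.03 for GABA-A alpha. The values nearest 0 for AMPA, kainate and NMDA came without ischemic pool 2, and the positive value for GABA-A alpha came without treated ischemic pool 3. These counts were 11 of 26 for both arms and 16 for their mean when the deposition scale was added as a block, a fit in which the treated ischemic group rests on its pool 1. With groups taken from the descriptions, 15 of 26 were lower in both arms, and without the 2 contradictory arrays 14 were. The difference between the arms was tested as well, and 17 of 26 members had the lower value with the drug (54.6% of all). No member passed (0% of all probe sets), nor did any member reach an unadjusted p under 0.05 (2.08% of all).

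**Figure D1:**
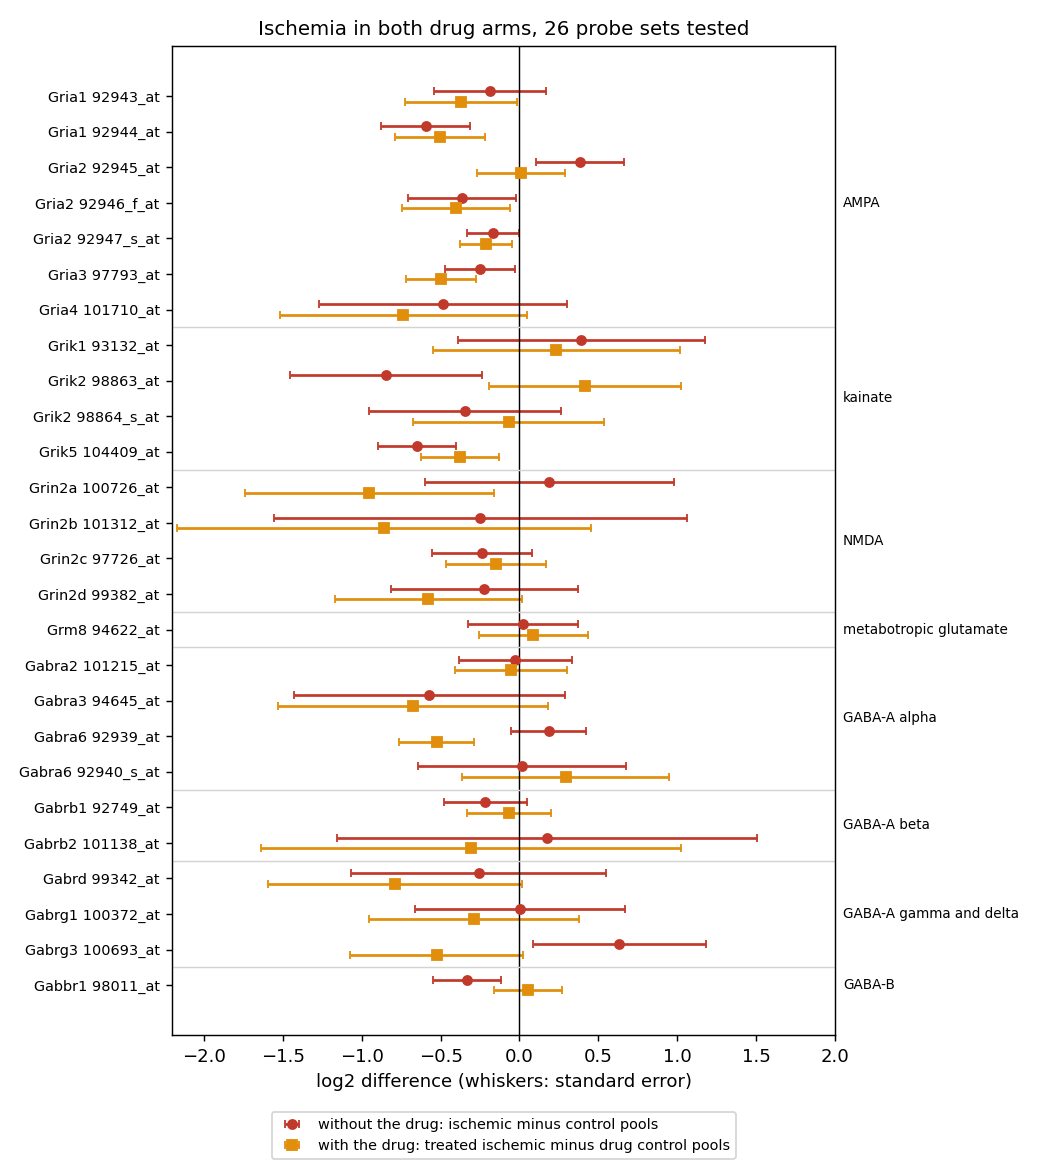
Log2 difference between ischemic and control pools for the 26 tested receptor probe sets, by subunit class, without the drug (circles) and with it (squares); whiskers are standard errors from limma, n = 3 pools per group. Most points lie left of 0, with medians of -0.22 without and -0.34 with the drug, and most whiskers of the dim NMDA and GABA-A subunits cross 0.

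Markers of striatal medium spiny neurons, a main cell type of the deep territory of this artery, differed in the same comparison. Of 10 striatal probe sets 9 were lower after ischemia in the mean of both arms, with a median of -0.54. The summed linear intensity of the list ran from 78659.8 to 90999.8 in control, from 82339.4 to 86771.3 in drug control, from 52981.6 to 63189 in ischemic and from 44383.6 to 71080.1 in treated ischemic pools, without overlap between ischemic pools and their controls in either arm. No striatal probe set was at the floor on all arrays. Drd2, the dopamine receptor of indirect pathway neurons, had the smallest p of the list (log2 difference -0.88 ± 0.18 SE, adjusted p = 0.0901 with limma). Cortical and hippocampal neuron markers were lower in 8 of 13 probe sets (median -0.21), and their sums overlapped between all 4 groups, at 76774.9 to 99198.6. Of the general neuronal markers 13 of 19 were lower (median -0.07). In whole tissue, fewer neurons of a type and less receptor RNA per neuron cannot be told apart, and the part of striatal neurons in the receptor differences was not tested.

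AMPA receptor subunits form the channels of fast excitatory transmission. Gria1, a subunit abundant in forebrain principal neurons, was lower in both arms. Its probe set 92944_at read 13.40, 13.11 and 13.57 in control pools 1 to 3 and 12.40, 12.58 and 13.32 in the ischemic pools. In the drug arm it read 13.52, 12.91 and 13.70 in drug control and 12.92, 12.83 and 12.87 in treated ischemic pools. Ischemic pool 3 and drug control pool 2 were the arrays that made the groups overlap in the arms without and with the drug. The log2 difference was -0.59 ± 0.28 (SE) without and -0.50 ± 0.28 with the drug, and -0.55 ± 0.20 in the mean of both arms, a 1.46-fold lower level (adjusted p = 0.764 with limma). The other Gria1 probe set, 92943_at, was lower by less, with -0.19 ± 0.35 and -0.37 ± 0.35 in the arms without and with the drug.

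Gria3 (97793_at), which contributes to AMPA receptors alongside Gria2, read 11.60, 11.22 and 11.67 in control and 11.34, 11.06 and 11.34 in ischemic pools, which overlapped. Its 3 drug control values of 11.21, 11.38 and 11.49 all lay above its treated ischemic values of 11.15, 10.46 and 10.98. Of all probe sets 3.64% were lower with no overlap in that arm, where 3 of 26 members were, and 3.75% were higher, where no member was. The log2 difference was -0.25 ± 0.22 without and -0.50 ± 0.22 with the drug. In the mean of both arms it was -0.37 ± 0.16 (1.30-fold, adjusted p = 0.958 with limma). Treated ischemic pool 2 was the lowest of the pools, and without it the mean of both arms was -0.27.

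Gria2 encodes the subunit whose edited form keeps calcium out of the AMPA channel, and its 3 measured probe sets disagreed in sign. The probe set 92947_s_at read 15.47, 15.60 and 15.69 in control, 15.30, 15.38 and 15.58 in ischemic, 15.52, 15.50 and 15.77 in drug control and 15.36, 15.36 and 15.45 in treated ischemic pools. The groups overlapped without the drug and did not overlap with it, at differences of -0.17 ± 0.16 and -0.21 ± 0.16. The probe set 92946_f_at read 13.65, 13.10 and 14.09 in control, 13.49, 12.62 and 13.65 in ischemic, 13.75, 13.16 and 13.81 in drug control and 13.20, 12.88 and 13.44 in treated ischemic pools, with replicate 2 lowest in all 4 groups. Its differences were -0.36 ± 0.34 and -0.40 ± 0.34. The probe set 92945_at went the other way, with 14.14, 13.66 and 14.24 in control and 14.47, 14.81 and 13.91 in ischemic pools, a difference of 0.38 ± 0.28. With the drug its difference was 0.01 ± 0.28, from 13.88, 14.43 and 14.13 in drug control to 13.85, 14.34 and 14.29 in treated ischemic pools. In the mean of both arms the 3 probe sets gave -0.19, -0.38 and 0.20, each with an adjusted p of 1 with limma. In same-numbered control and ischemic pools 92947_s_at and 92946_f_at were lower after ischemia in all 3 pairs, and 92945_at was higher in pairs 1 and 2 and lower in pair 3.

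Gria4 (101710_at), the AMPA subunit typical of some interneurons and of young neurons, was dim and variable. It ran from 7.51 to 9.06 in control, 6.81 to 9.0 in ischemic, 6.77 to 9.71 in drug control and 6.77 to 8.20 in treated ischemic pools. Its difference of -0.61 ± 0.55 in the mean of both arms was close to its standard error.

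**Figure D2:**
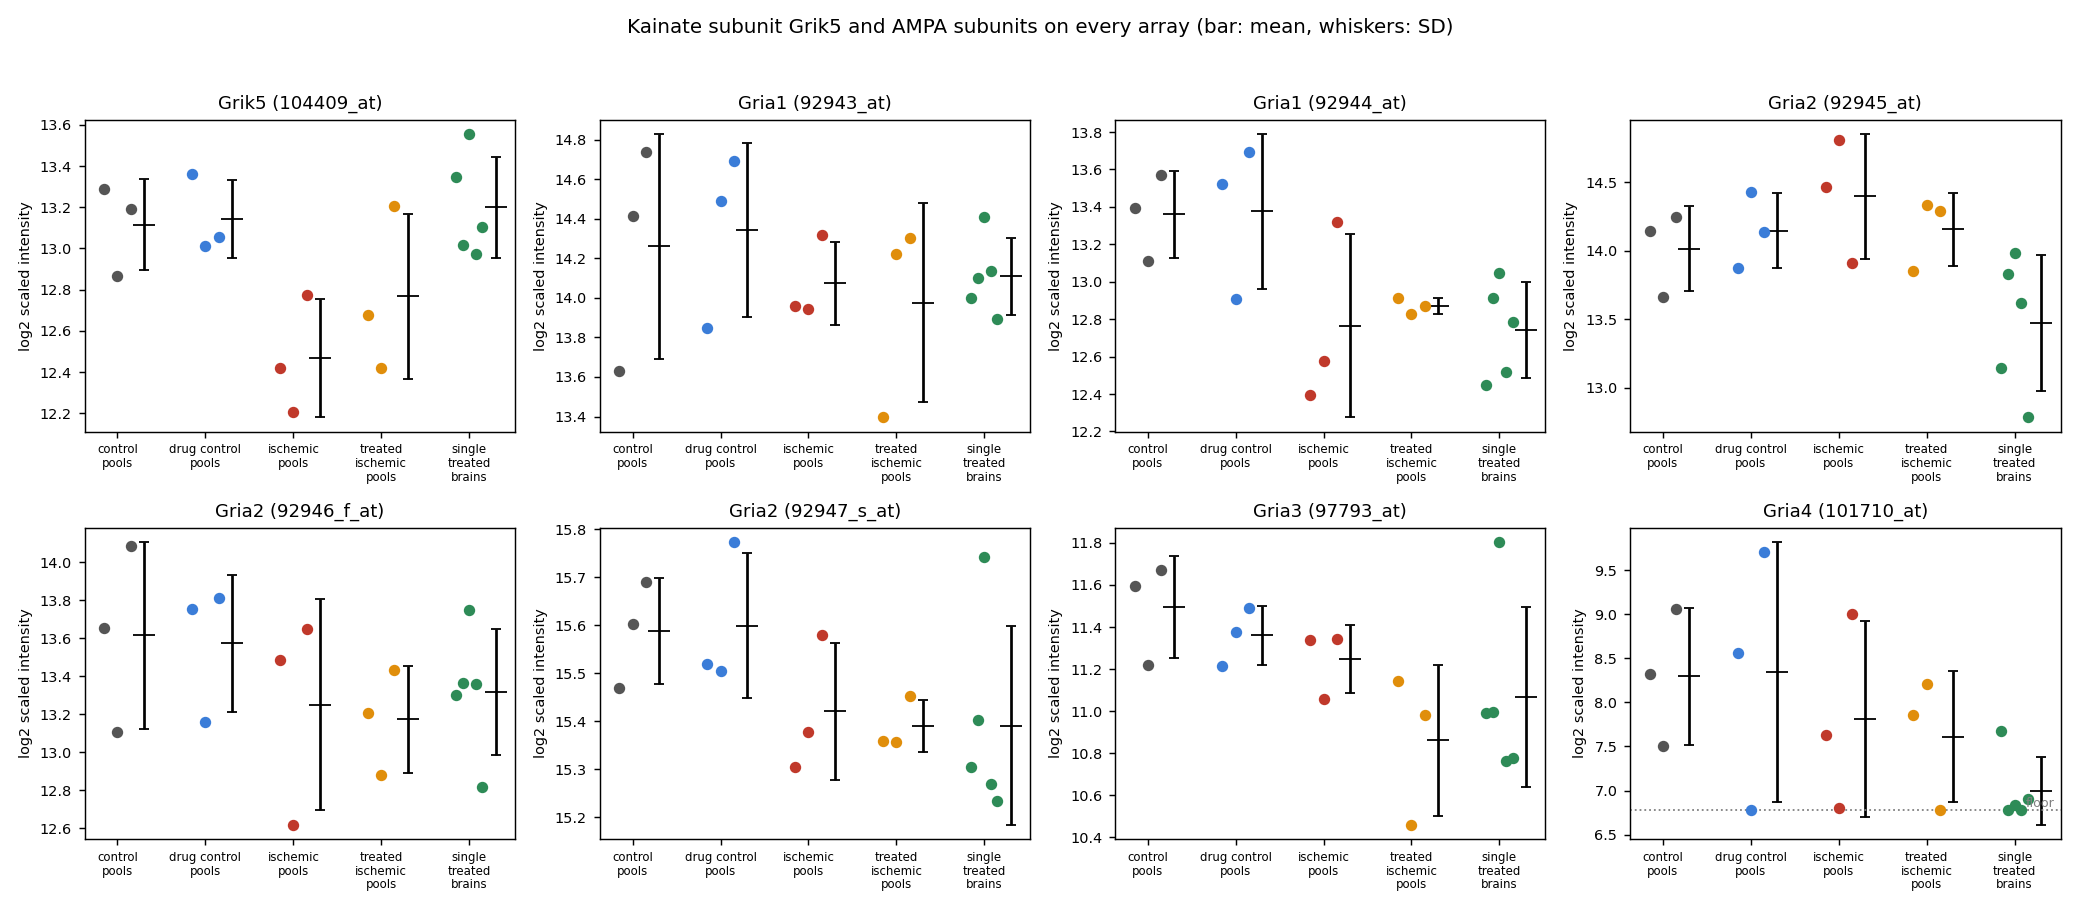
Log2 scaled intensity of Grik5 and of the 7 tested AMPA probe sets on every array, by group; points are single arrays (3 pools per group, 5 single brains), bars are group means, whiskers are SDs and the dotted line is the floor at 6.77. Grik5 lies between 12.21 and 12.77 in the ischemic pools and between 12.87 and 13.29 in the control pools, and the single brains, between 12.97 and 13.55, overlap the control pools.

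Kainate receptors modulate transmitter release and excitability. Grik5, an auxiliary kainate subunit that forms channels only together with Grik1, Grik2 or Grik3, had the smallest p of all members for ischemia without the drug and in the mean of both arms. Its probe set 104409_at read 13.29, 12.87 and 13.19 in control and 12.42, 12.21 and 12.77 in ischemic pools. All ischemic pools thus lay below all control pools, as for 2 of 26 members and 3% of all probe sets, while no member lay above its controls in this way (4.07% of all). In drug control pools it read 13.36, 13.01 and 13.06 and in treated ischemic pools 12.68, 12.42 and 13.21, where treated ischemic pool 3 lay among the drug controls. The difference was -0.65 ± 0.25 without the drug (1.57-fold lower, unadjusted p = 0.0257, adjusted p = 1 with limma) and -0.38 ± 0.25 with it. In the mean of both arms it was -0.51 ± 0.18 (adjusted p = 0.695), between -0.62 and -0.43 when any 1 pool was left out.

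Grik2, a principal kainate subunit, was measured by 2 probe sets. The probe set 98863_at read 9.43, 8.83 and 9.57 in control and 8.74, 8.14 and 8.41 in ischemic pools, again without overlap, a difference of -0.85 ± 0.61. With the drug its sign turned, to 0.41 ± 0.61, from 9.24, 6.77 and 8.75 in drug control to 9.54, 8.63 and 7.83 in treated ischemic pools. Drug control pool 2, at the floor, set that sign, and the test of the difference between the arms gave 1.26 ± 0.86 (adjusted p = 1 with limma). The other Grik2 probe set, 98864_s_at, gave -0.35 ± 0.61 and -0.07 ± 0.61. Grik1 (93132_at), the remaining principal subunit measured, gave 0.39 ± 0.78 and 0.23 ± 0.78 and was the 1 kainate probe set with higher means in both arms.

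NMDA receptors are the calcium-permeable, voltage-dependent glutamate channels, and the array measured 4 of their Grin2 subunits, which set the kinetics of the channel. All 4 had lower means in the mean of both arms, and all 4 differences were smaller than their standard errors. Grin2a (100726_at), which dominates in the mature forebrain, read 7.39, 6.77 and 9.30 in control and 8.62, 6.77 and 8.62 in ischemic pools, so that its groups overlapped. In drug control pools it read 7.25, 8.07 and 9.31 and in treated ischemic pools 6.77, 8.23 and 6.77. The differences were 0.19 ± 0.79 without and -0.95 ± 0.79 with the drug.

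Grin2b (101312_at), the forebrain subunit with slow kinetics, ran from the floor to 11.04 within the control pools alone. It was at the floor in replicate 2 of the control, ischemic and treated ischemic pools and at 7.59, its lowest drug control value, in replicate 2 of that group. Its differences were -0.25 ± 1.31 and -0.86 ± 1.31, and the 95% interval of the former ran from -3.16 to 2.66. Grin2c (97726_at), known best from cerebellum and glia, was bright and even, at 11.75, 11.34 and 12.12 in control and 11.11, 11.37 and 12.03 in ischemic pools. Its difference was -0.24 ± 0.32 without and -0.15 ± 0.32 with the drug, and its groups overlapped in both. Grin2d (99382_at), a subunit of interneurons and brainstem, was above the floor in 5 of the 12 pools. It read 6.86, 7.36 and 6.77 in control, 9.34, 7.29 and 6.77 in drug control and 6.77, 6.77 and 8.12 in treated ischemic pools, and all ischemic pools were at the floor. Drug control pool 1, described as saline, held the highest of these values. Grm8 (94622_at), a presynaptic metabotropic receptor that limits transmitter release, differed by 0.03 ± 0.35 and 0.09 ± 0.35.

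GABA-A subunits showed no common direction without the drug, where 4 of 9 probe sets were lower after ischemia, and 8 of 9 were lower with it. None passed an unadjusted p under 0.05 in either arm. Gabrb1 (92749_at), a beta subunit, read 13.86, 13.88 and 13.36 in control and 13.55, 13.68 and 13.23 in ischemic pools. It read 13.84, 13.68 and 13.21 in drug control and 13.70, 13.76 and 13.08 in treated ischemic pools. Pool 3 was the lowest in each of the 4 groups, and the differences of -0.22 ± 0.26 and -0.06 ± 0.26 were smaller than this step. Gabrd (99342_at), the delta subunit of extrasynaptic receptors, gave -0.26 ± 0.81 and -0.79 ± 0.81, the latter set by treated ischemic pool 2 at 7.54 beside 10.46 and 10.98 in pools 1 and 3. Gabra3 (94645_at), an alpha subunit of monoaminergic and some cortical neurons, gave -0.57 ± 0.86 and -0.67 ± 0.86. Gabrb2 (101138_at), the beta subunit most common at synapses, ran from the floor to 11.21 and gave 0.17 ± 1.33 and -0.30 ± 1.33. Gabrg1 (100372_at), a gamma subunit with restricted expression, gave 0.01 ± 0.67 and -0.29 ± 0.67.

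Gabbr1 (98011_at), an obligatory subunit of the GABA-B receptor, read 15.19, 15.19 and 14.77 in control and 14.83, 14.52 and 14.81 in ischemic pools. Control pool 3 was the array that brought the groups to overlap, and the difference was -0.33 ± 0.21. With the drug it read 15.28, 14.75 and 14.75 in drug control and 15.12, 14.82 and 15.01 in treated ischemic pools, a difference of 0.06 ± 0.21. The difference between the arms was 0.39 ± 0.30 (adjusted p = 1 with limma).

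The drug was compared with its absence in both the uninjured and the ischemic brain. No member passed an adjusted p of 0.05 in either comparison (0.00975% of all probe sets in each). After ischemia no member reached an unadjusted p under 0.05 (1.47% of all), and no member separated the groups (2.11% of all probe sets lower and 1.72% higher without overlap). Of 26 members 15 were lower with the drug (52.9% of all). Without ischemia 1 member, Gabra6, reached it (2.57% of all), and 12 of 26 were lower (45.4% of all).

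Gabra6, an alpha subunit best known from cerebellar granule cells, and Gabra2, a forebrain alpha subunit, were the members that separated drug control from control pools. Gabra6 (92939_at) was at the floor of 6.77 in all control pools and read 7.88, 7.73 and 7.58 in drug control pools, so that it was at least 1.94-fold higher (unadjusted p = 0.00233, adjusted p = 1 with limma). Of all probe sets 2.73% were higher without overlap. The standard error of 0.24 is lowered by the control group, which has no spread at the floor. It read 6.77, 7.33 and 6.77 in ischemic and 7.55, 7.29 and 6.77 in treated ischemic pools, so the groups overlapped after ischemia. Treated ischemic pools lay below drug control pools, with a difference of -0.52 ± 0.24 (unadjusted p = 0.0515). The other Gabra6 probe set, 92940_s_at, went the other way, at 6.77, 7.71 and 8.80 in control and 6.77, 6.77 and 8.21 in drug control pools (-0.51 ± 0.66). Other markers of cerebellum and hindbrain, Gabra6 left out, had summed linear intensities of 24078.1 to 27835.1 in control and 21563.7 to 28404.6 in drug control pools, which overlapped.

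Gabra2 (101215_at) read 9.34, 9.90 and 9.45 in control and 8.81, 8.86 and 8.80 in drug control pools, a difference of -0.74 ± 0.36 (1.67-fold lower, unadjusted p = 0.0636, adjusted p = 1 with limma). Drug control pools were all lower, as for 1.92% of all probe sets. After ischemia it read 9.23, 9.59 and 9.80 without and 8.73, 9.60 and 7.99 with the drug, a difference of -0.77 ± 0.36 (unadjusted p = 0.0556), with treated ischemic pool 2 among the untreated values. That difference was -0.38 without treated ischemic pool 3 and -1.18 without treated ischemic pool 2. The drug control group had the highest median actin 3'/5' ratio. Its pools 1 to 3 had ratios of 1.97, 2.14 and 1.15, the last being the lowest of all arrays. The part of this ratio in the Gabra2 levels was not tested. Gabrg3 (100693_at), a gamma subunit, read 8.51, 8.43 and 10.42 in control and 9.69, 10.15 and 10.42 in drug control pools, a difference of 0.97 ± 0.55, and control pool 3 was level with the highest drug control pool. After ischemia it read 9.22, 9.50 and 10.55 without and 9.90, 9.83 and 8.96 with the drug. Its ischemia difference was 0.63 ± 0.55 without and -0.53 ± 0.55 with the drug, and the difference between the arms was -1.16 ± 0.78 (adjusted p = 1 with limma).

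The stretches of 250 bases before the transcription starts of Gabra6, Gabrg3 and Gabra2 are shown because these genes carried the clearest differences among the GABA-A subunits. They are RefSeq sequences on build GRCm38.p6, from chr11:42321073-42321322 for Gabra6, chr7:57387216-57387465 for Gabrg3 and chr5:71095850-71096099 for Gabra2, each on the minus strand and outside the annotated gene. Capitals mark the GC box GGGCGG or its reverse complement.
Gabra6: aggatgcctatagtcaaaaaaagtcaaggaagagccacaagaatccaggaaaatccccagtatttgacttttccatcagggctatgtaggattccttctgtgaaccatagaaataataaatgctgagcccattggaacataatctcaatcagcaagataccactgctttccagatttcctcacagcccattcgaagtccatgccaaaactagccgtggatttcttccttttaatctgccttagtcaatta
Gabrg3: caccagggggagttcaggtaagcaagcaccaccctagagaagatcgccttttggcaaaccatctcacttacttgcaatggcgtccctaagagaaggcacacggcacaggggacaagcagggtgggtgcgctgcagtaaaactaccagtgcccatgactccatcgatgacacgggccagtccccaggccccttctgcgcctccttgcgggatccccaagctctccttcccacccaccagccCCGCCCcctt
Gabra2: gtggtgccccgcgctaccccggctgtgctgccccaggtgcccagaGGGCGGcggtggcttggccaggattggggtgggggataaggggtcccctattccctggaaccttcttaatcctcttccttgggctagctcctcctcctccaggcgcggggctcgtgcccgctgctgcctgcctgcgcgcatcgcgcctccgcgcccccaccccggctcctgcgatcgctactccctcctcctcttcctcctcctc
The promoter table held 15 of the 21 genes. The 3 stretches were searched on both strands for 6 motifs. These were the TATA box TATAAA, the cAMP response element TGACGTCA, the AP-1 site as TGAGTCA or TGACTCA, the GC box GGGCGG, the Egr site GCGGGGGCG, which can overlap a GC box, and the E-box CACGTG. Gabra6 held none of them and had 40.8% G and C, against a median of 52.4% over all promoters. Gabrg3 and Gabra2 held 1 GC box each, at 60.4% and 70.0% G and C. The same 250 bases held a GC box in 32.7% of the 32851 promoters of the table, a TATA box in 12.4%, an E-box in 6.02%, an AP-1 site in 4.46%, an Egr site in 2.57% and a cAMP response element in 1.55%. A match is a description of letters and not of a bound site. In the RefSeq order of coding genes Gabra6 and Gabrb2 are neighbours on chromosome 11, and Gabrg1 and Gabra2 are neighbours on chromosome 5.

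**Figure D3:**
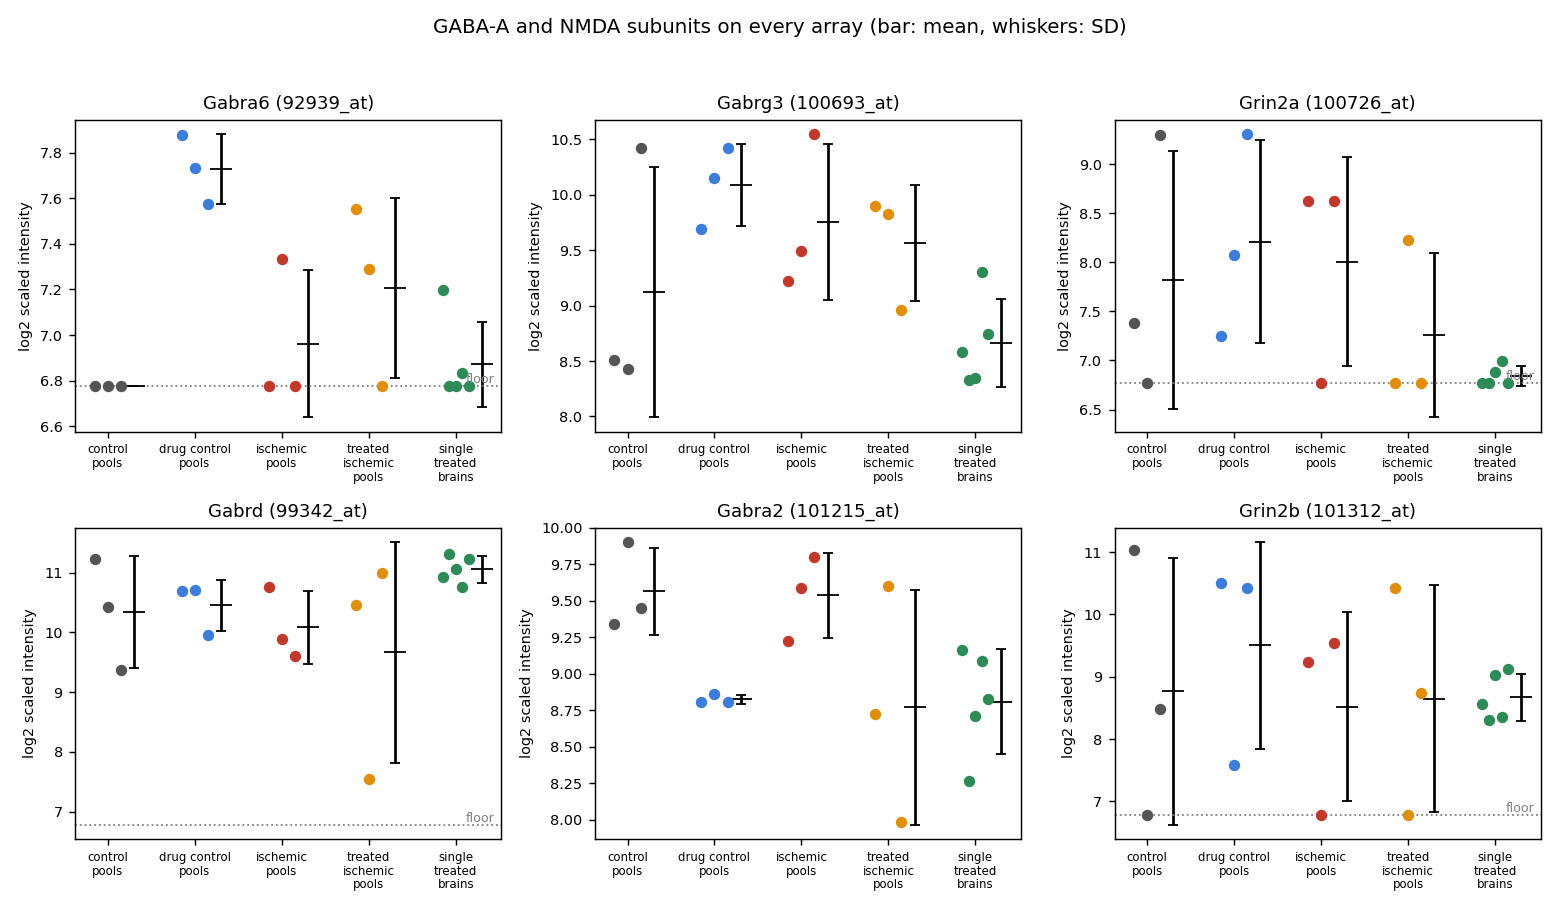
Log2 scaled intensity of 4 GABA-A and 2 NMDA probe sets on every array, by group; points are single arrays, bars are group means, whiskers are SDs and the dotted line is the floor at 6.77. Gabra6 is above the floor in all 3 drug control pools and in no control pool, and Gabrg3 lies between 8.33 and 9.30 in the single brains and between 9.69 and 10.42 in the drug control pools.

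The single treated ischemic brains were set against the drug control pools and against the ischemic pools in a separate fit. The former comparison adds ischemia to the drug, and the latter adds the drug to ischemia. Against the drug control pools 2 of 26 members fell at an adjusted p under 0.05 (3.21% of all probe sets), Gabrg3 and Gabra6. An unadjusted p under 0.05 was reached by 4 members (23.6% of all), all lower. Of 26 members 18 were lower (54.7% of all), among them all 7 AMPA probe sets. Without overlap 3 were lower (11.7% of all) and 1 higher (8.62% of all).

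Gabrg3 read 8.58, 8.33, 8.34, 9.30 and 8.75 in brains 11, 12, 13, 14 and 16, all below the drug control pools. The difference was -1.43 ± 0.33 (2.69-fold lower, adjusted p = 0.0479 with limma). The control pools 1 and 2, at 8.51 and 8.43, lay within the range of the single brains, and treated ischemic pools 1 to 3, which share the treatment, read 9.90, 9.83 and 8.96. The call was lost without drug control pool 2 (adjusted p = 0.099) or 3 (0.168) and without brain 11 (0.0927), 12 (0.101), 13 (0.094) or 16 (0.0825). It was kept without drug control pool 1 (0.0496) and brain 14 (0.0493).

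Gabra6 (92939_at) read 7.20, 6.77, 6.77, 6.83 and 6.77 in the same brains, against 7.58 to 7.88 in the drug control pools. The difference was -0.86 ± 0.18 (adjusted p = 0.0326 with limma). Since 3 of the 5 brains were at the floor, its size depends on where the floor lies, and it was -1.60 with the floor at the 20th percentile. Its other probe set, 92940_s_at, read 7.89, 6.77, 7.34, 7.92 and 6.77 and gave 0.08 ± 0.50. The call was lost without drug control pool 1 (adjusted p = 0.0665), 2 (0.0699) or 3 (0.0803) and without brain 12 (0.0734), 13 (0.0683), 14 (0.0733) or 16 (0.0674), and kept without brain 11 (0.0346). Both calls were lost with that lower floor, at adjusted p = 0.0642 for Gabrg3, whose difference stayed at -1.43, and 0.159 for Gabra6, whose difference was larger. Grin2a followed with a difference of -1.37 ± 0.49 (adjusted p = 0.137), with 6.77, 6.77, 6.88, 7.0 and 6.77 in the brains, 3 of them at the floor. It was -0.82 without drug control pool 3 (adjusted p = 0.400) and -2.08 with the lower floor (adjusted p = 0.122).

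Against the ischemic pools no member passed (1.37% of all probe sets), and 7 of 26 had an unadjusted p under 0.05 (20.8% of all). Here 15 of 26 were lower (54.9% of all), 3 without overlap (9.47% of all), and 2 were higher without overlap (6.97% of all). Grik5 read 13.35, 13.02, 13.55, 12.97 and 13.10 in the single brains, all above the ischemic pools, and the difference was 0.73 ± 0.19 (1.66-fold higher, adjusted p = 0.0868 with limma). Its difference from the drug control pools was 0.06 ± 0.19, with a 95% interval of -0.37 to 0.48. The Grik5 levels of the single brains overlapped those of the uninjured pools. Treated ischemic pools 1 to 3, which share the treatment, read 12.68, 12.42 and 13.21, with pools 1 and 2 below every single brain. The striatal marker sum in these brains was 61000.1, 37074.5, 84139.4, 35308.7 and 35957.9, below every uninjured pool in 4 of the 5. The part of striatal neurons in the Grik5 levels was not tested, and the single brains cannot be told apart from their deposition scale. Gabrd read 10.93, 11.32, 11.05, 10.75 and 11.22 and was higher by 0.98 ± 0.28 (adjusted p = 0.108), with brain 14 just under ischemic pool 1 at 10.76. Gabra2 read 9.16, 8.26, 8.71, 9.09 and 8.82, all below the ischemic pools, a difference of -0.73 ± 0.22 (adjusted p = 0.114). Gria1 (92944_at) read 12.45, 12.91, 13.05, 12.52 and 12.79, inside the range of the ischemic pools, and differed from them by -0.02 ± 0.26.

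Within the scale on which they were deposited, the single brains could be set only against treated ischemic pools 2 and 3. There 14 of 26 members were lower in the single brains, with a median log2 difference of -0.06, with no test. On the common scale treated ischemic pool 1 alone represented its group. It was lower than the ischemic pools in 10 of 26 members (median 0.15) and lower than the drug control pools in 16 of 26 (median -0.18).

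Receptor levels, like those of most probe sets, followed the replicate number of the pools more than the treatment. In control, drug control and ischemic pools, whose same-numbered arrays deviated together, the replicate number took a median of 64.2% of the variance of a member and the group 13.7%, against 48.0% and 17.2% over all probe sets. The replicate share exceeded the group share in 19 of the 26, and in 7511 of all 10259 probe sets tested. It was 89.2% for Grik1, 87.0% for Gria4, 84.2% for Gabra3, 81.9% for Gabrb1 and 80.7% for Grin2b. Replicate 2 was the lowest in 14 of 26 members, 53.8% against 36.0% of all probe sets. The group share was the larger in the other members, and was highest for Gabra6 (92939_at, 85.8%), Gabra2 (75.2%) and Grik5 (72.5%). For Gabra6 the control pools had no spread at the floor. The labels do not say what a replicate number stands for. In these groups the actin 3'/5' ratio was 1.15 to 1.19 for replicate 3, 1.65 to 1.97 for replicate 1 and 1.33 to 2.14 for replicate 2, and its part in the receptor levels was not tested. With the replicate number as a block the count of members called stayed at 0 in every comparison of pools. Over all probe sets the block moved the calls from 22 to 35 without the drug and from 46 to 65 in the mean of both arms.

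**Figure D4:**
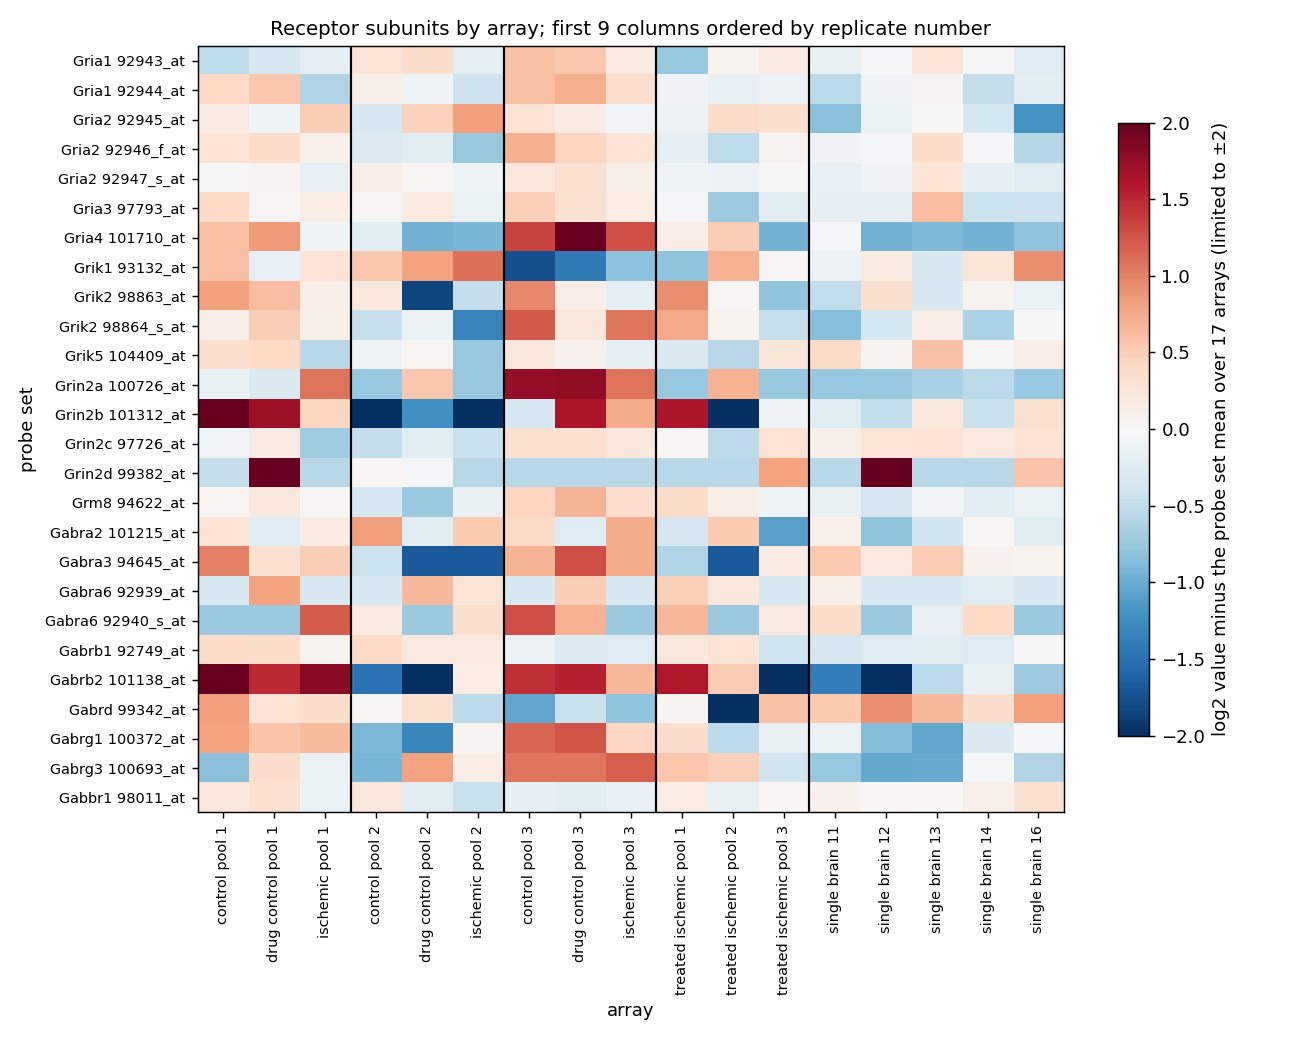
Deviation of each tested receptor probe set from its mean over the 17 arrays on the log2 scale, limited to 2 in either direction; rows are probe sets by class and columns are arrays, the first 9 ordered by replicate number. Within these 9 columns the blocks of equal replicate number look alike, and replicate 2 is the lowest in 14 of the 26 rows.

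Genes that handle the transmitters and anchor the receptors were counted in the same way. Of 17 probe sets for transporters and enzymes of glutamate and GABA 6 were lower after ischemia in the mean of both arms, with a median of 0.05, and none passed an adjusted p of 0.05. Slc1a2, the main astrocytic glutamate transporter, had the smallest p of that list. It read 10.45, 10.18 and 10.11 in control, 11.13, 10.97 and 10.29 in ischemic, 10.81, 10.57 and 10.01 in drug control and 11.12, 10.94 and 10.76 in treated ischemic pools, higher by 0.52 ± 0.19 in the mean of both arms (adjusted p = 0.807 with limma). Its groups overlapped in both arms. Astrocyte markers, a list that holds Slc1a2, were lower in 3 of 15 probe sets (median 0.14). Their summed linear intensity ran from 184382 to 211402 in control, 196238 to 198076 in drug control, 206875 to 217271 in ischemic and 215788 to 224446 in treated ischemic pools.

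Of 27 probe sets for receptor scaffolds and trafficking proteins 22 were lower after ischemia in the mean of both arms, with a median of -0.14, and none passed. Pick1 (97684_at), which binds Gria2 and Gria3 and governs their internalisation, had the smallest p. It read 11.75, 11.35 and 12.38 in control, 11.76, 11.04 and 11.39 in ischemic, 12.31, 11.89 and 11.51 in drug control and 11.37, 10.97 and 10.97 in treated ischemic pools. All treated ischemic pools lay below the drug control pools, and the difference was -0.61 ± 0.22 in the mean of both arms (adjusted p = 0.761 with limma). The other Pick1 probe set, 161638_f_at, had the opposite sign, at 0.61 ± 0.63. It read 10.44, 11.10 and 10.19 in control, 10.54, 10.97 and 10.20 in ischemic, 6.77, 11.10 and 10.47 in drug control and 10.21, 10.78 and 11.05 in treated ischemic pools, with drug control pool 1 at the floor. Dlg3, a scaffold of NMDA receptors, was lower in every ischemic pool than in every control pool, at 11.78, 11.86 and 11.78 against 12.08, 12.07 and 12.01, and differed by -0.28 ± 0.11 in the mean of both arms (adjusted p = 0.896). Nptx2, an activity-induced protein that gathers AMPA receptors, was the largest exception, at 10.32, 10.38 and 11.68 in ischemic against 9.87, 9.64 and 10.76 in control pools and 0.84 ± 0.38 in the mean of both arms (adjusted p = 0.998). Of 4 probe sets for related receptors outside the rule 2 were lower, among them Grid1, a delta glutamate receptor, by -0.39 ± 0.19 (adjusted p = 1).

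Other cell types were counted beside these. After ischemia in the mean of both arms 3 of 15 oligodendrocyte (median 0.22), 3 of 9 microglial, 5 of 17 endothelial and mural (median 0.40) and 6 of 14 interneuron probe sets (median 0.02) were lower. None passed an adjusted p of 0.05, and their part in the receptor differences was not tested. The defining markers Mag of oligodendrocytes, Cd68 and Fcer1g of microglia and Vwf and Tie1 of endothelium each had a probe set at the floor on all arrays. Further probe sets of several of them were measured above it. Over the 17 arrays Mag (102405_at) ran from 11.94 to 13.28 and Cd68 (103016_s_at) from 9.54 to 10.85. Vwf (103499_at) ran from 8.39 to 10.11 and Tie1 (161184_f_at) from the floor to 9.06.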

How the data were processed

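Expression was measured on 17 oligonucleotide arrays of mouse brain, 12 of them pools of 6 brains. The authors deposited linear intensities, 1 for each probe set on each array, and their software is not given in the sources used here. On each array 15.2% to 19.3% of values were below 0. The trimmed mean, taken from the 2nd to the 98th percentile, was 2500 on 10 arrays as deposited and 129 to 210 on the other 7.

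Each array was multiplied to bring it to 2500, values under the 25th percentile (an intensity of 109.5) were raised to it, and log2 was taken. A fold against a group at the floor is a lower bound. Control probe sets of the array (66) were not tested. A probe set was tested when 3 or more arrays of the fit exceeded the floor, which left 10259 in the pools and 10227 with the single brains. Symbols came from the platform annotation (10855 probe sets with 1 symbol, 10839 of them matched to RefSeq by Entrez number).

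Models were linear, from limma 3.58.1 under R 4.3.3. The 12 pools shared 1 estimate of the spread (8 residual and 2.23 prior degrees of freedom). The single brains were fitted with the drug control and ischemic pools (8 residual and 2.22 prior degrees of freedom). Tests were two-sided, with Benjamini-Hochberg adjustment over all probe sets of a comparison and a threshold of 0.05. An exact permutation test of 3 against 3 arrays cannot go below p = 0.1 and was not run. Values after ± are standard errors from the fits without a block. The script was tested on simulated data.

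Values on single arrays are given for members called in any comparison and for the 5 smallest p values of each comparison of pools. They are also given for the 3 smallest of each comparison with single brains and for genes whose probe sets differ in sign. For some of these members only part of the arrays is given, and Grik2 98864_s_at is given by its differences alone. Further members were added after their values were seen. Members and gene lists were chosen with earlier results of these data known, so no test over the members was made. Members were left out of the other gene lists.

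Same-numbered control, drug control and ischemic pools deviated together (correlations 0.332 to 0.571 in 9 of 9 pairs). Those with treated ischemic pools did so in 5 of 9 (-0.335 to 0.401). The labels number the treated ischemic pools in conflicting ways, since pool 2 is described as a first replicate, so their numbers are themselves uncertain. For the other groups the pairing is read from the data, since no label gives its meaning. Alternatives were quantile normalization, another scaling, other floors, no filter, a mean-variance trend, groups from the descriptions, a scale block, a replicate block and leaving out each array.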

Additional observations from a re-analysis of the deposited data

Results flagged for a closer look

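Among the 5 single brains, 3 of the 26 member probe sets held 1 brain whose gap to the nearest of the others, relative to the whole range, was above Dixon's 95% critical value. Chance alone puts about 1 in 20 such groups past it when values are normally distributed. Gria3 (97793_at) read 11.81 in brain 13 and 10.76 to 10.99 in the other brains. Brain 13 also had the highest sums of the striatal (84139.4) and the cortical and hippocampal (114280) neuron markers among the single brains. Its sum of the thalamus and hypothalamus markers was low (26012.8, against up to 79950.7). Brain 11 was nearly as low in the latter (27035.2), with Gria3 at 10.99. Gria4 (101710_at) read 7.67 in brain 11 and 6.77 to 6.91 in the others, and Gabra6 (92939_at) read 7.20 in brain 11 and 6.77 to 6.83 in the others. In both of these the other brains lay at or near the floor, so the rate of 1 in 20 does not apply to them. The part of the marker sums in these values was not tested.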

How the results depend on the processing

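Outside the left-out arrays, 577 values were recomputed under other settings, and 564 were classed as unchanged. For the difference of a member this meant the same sign and the same side of the threshold. For a count it meant a small change. For a class median it meant a move smaller than the spread of the class mean between pools, whatever the sign. No setting called a member in the 6 comparisons of pools. For the single brains against the drug control pools, where 2 members were called, 0 were called with the floor at the 20th percentile, which was added after seeing the data, 1 with the floor at the 40th percentile, 1 with no filter on low values, and 0 with a mean-variance trend. With the floor at the 40th percentile it was Gabrg3 (adjusted p = 0.0363 with limma), and Gabra6 (92939_at) was not tested. With no filter it was Gabra6 (adjusted p = 0.0275), with Gabrg3 at 0.0647. Against the ischemic pools 1 member, Grik5, was called with the trend (adjusted p = 0.0445), in place of 0. Leaving out any 1 array gave 0 to 1 members in both comparisons of the single brains. The 1 against the ischemic pools came without ischemic pool 1 and was Gabrd (log2 difference 1.31, adjusted p = 0.0403 with limma). Grik5 was not called there (adjusted p = 0.118).

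With groups from the descriptions, the difference of Gabra6 (92939_at) with the drug after ischemia was -0.078 in place of 0.24, and that of Grin2d with the drug without ischemia was -0.55 in place of 0.81, neither of them called. The cause was not tested beyond the regrouping itself. Members lower after ischemia numbered 16 to 21 without the drug, 17 to 24 with it and 19 to 24 in the mean of both arms when 1 pool was left out. Under the other settings they numbered 17 to 20, 16 to 21 and 16 to 22. The NMDA median without the drug moved from -0.23 to 0.01 with the floor at the 20th percentile, and the kainate median in the mean of both arms from -0.21 to 0.02 with the scale block. Class medians also changed sign without 1 pool. The kainate median with the drug (0.08) ran from -0.28 without drug control pool 2 to 0.22 without treated ischemic pool 3. The NMDA median without the drug was 0.23 without ischemic pool 2, the GABA-A alpha median in the mean of both arms was 0.03 without treated ischemic pool 3, and that without the drug ran from -0.21 to 0.07. The replicate block changed no member call. In the fit without the treated ischemic pools it called 15 of all probe sets for ischemia without the drug, and again no member. A floor at the 10th percentile was not run, since that percentile is -139 and has no log.

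With 3 pools per group, the fit without a replicate block does not distinguish between differences that lie within the 95% interval of a member. The intervals given here leave out the replicate number, although same-numbered control, drug control and ischemic pools deviated together. Some members, such as Grin2d, lay at or near the floor, under which values were not resolved.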
